A study of Rattus norvegicus with 46 samples.

Results

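The comparison described here is the lowest dose of chlorpyrifos in experiment A against the vehicle animals of that experiment, in rat frontal lobe. Its members were taken from the array titles: animals 1, 2 and 3 at 1 mg/kg and animals 2, 3 and 4 given vehicle, 6 of the 46 arrays of the series. Animal 4 at 1 mg/kg and vehicle animal 1 were not used, because their columns do not follow the row order of the table (median correlation of log2 intensity with the other columns -0.00062 and -0.0029). All animals were male Fisher 344 rats of 11 to 12 weeks, and the labels name no genetic change. The dosed rats received chlorpyrifos once at 1 mg/kg, the other rats received vehicle (0 mg/kg), and all were killed after 96 h. The frontal lobe piece taken from each rat weighed about 30 mg and was hybridised to 1 Affymetrix rat array. By the animal numbers each array is a separate rat. The p-values below measure the spread between such arrays within groups, pooled over the 39 arrays used from the series and not these 6 alone.

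Chlorpyrifos is an organophosphate insecticide. The liver and brain turn it into an oxon that binds the active site of acetylcholinesterase and of other serine hydrolases, so that acetylcholine persists at synapses. Immediate early genes are transcribed in neurons soon after synaptic activity, without new protein synthesis, and their transcripts are short-lived. Many of them are switched on through phosphorylation of CREB, which binds the cyclic AMP response element, and of serum response factor partners.

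Values are log2 normalised intensities, and differences are 1 mg/kg minus vehicle on that scale with the standard error of the limma fit. Of the 15866 probe sets that are not controls, 11106 passed the filter on dim probe sets. Array medians of the 6 arrays ran from 255.5 to 275.3 units of intensity before normalisation. The ratio of 3' to 5' actin signal, a measure of RNA integrity, was 1.55, 1.42 and 1.63 in the 1 mg/kg animals, against 1.53, 1.85 and 1.49 in vehicle animals. An array holds no count of molecules, so the number of arrays limits the precision.

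No probe set passed the test at an adjusted p of 0.05 (limma, Benjamini-Hochberg over 11106 probe sets, percent called 0). The lowest adjusted p was 0.147. At an unadjusted p under 0.05 the fit counted 358 probe sets (3.22% of those tested), with 140 higher (1.26%) and 218 lower (1.96%) at 1 mg/kg. Without dosed animal 2 that count was 210. The 3 dosed arrays lay entirely above the 3 vehicle arrays in 530 probe sets (4.77%) and entirely below them in 647 (5.83%), 10.6% in all. The median difference was -0.00 with a median standard error of 0.17, and 30 probe sets (0.27%) differed by more than 1 log2 unit. All differences of 1 mg/kg from vehicle by this fit that are named below are therefore values that did not pass the test.

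The immediate early and activity-regulated genes were mostly lower at 1 mg/kg. Of 31 genes listed, 23 were measured above the filter, and 19 of these had a difference below 0, where 50.8% of all probe sets lay below 0 and 49.2% above. Their median difference was -0.34, against -0.00 over all probe sets. The fit gave 6 of the 23 an unadjusted p under 0.05, all lower and all with groups that do not overlap: Dusp1, Arc, Nr4a1, Junb, Fos and Egr4. Over all probe sets 1.96% were lower at that p and 5.83% had all dosed arrays below vehicle. Without vehicle animal 3 that count was 3 and the median -0.19, and without dosed animal 2 they were 4 and -0.16. The list was chosen with earlier results of these data known. In pieces of tissue, fewer cells of a type and less RNA per cell cannot be told apart.

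Promoter windows of these genes are shown because the 6 lay lower together. RefSeq's table for GRCr8 held 4 of the 6, from 250 bases before to 50 bases after the gene start. Capitals mark the core of the cyclic AMP response element, TGACG, read on both strands. The full element TGACGTCA is its own reverse complement and holds overlapping copies of the core.
Dusp1, chr10:17184603-17184902, plus strand.
Dusp1: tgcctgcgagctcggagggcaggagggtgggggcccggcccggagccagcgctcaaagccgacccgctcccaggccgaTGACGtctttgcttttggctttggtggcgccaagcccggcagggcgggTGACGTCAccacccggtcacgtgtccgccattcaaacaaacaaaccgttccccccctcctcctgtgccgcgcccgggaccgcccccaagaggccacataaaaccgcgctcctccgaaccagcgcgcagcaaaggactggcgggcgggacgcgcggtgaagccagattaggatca
Nr4a1, chr7:134259888-134260187, plus strand.
Nr4a1: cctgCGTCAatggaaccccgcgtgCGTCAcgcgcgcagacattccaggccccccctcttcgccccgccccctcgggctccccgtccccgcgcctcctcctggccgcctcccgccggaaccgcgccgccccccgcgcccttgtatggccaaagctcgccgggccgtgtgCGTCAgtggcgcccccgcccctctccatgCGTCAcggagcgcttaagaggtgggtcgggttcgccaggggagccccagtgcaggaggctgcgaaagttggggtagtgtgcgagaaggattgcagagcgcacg
Junb, chr19:40080876-40081175, plus strand.
Junb: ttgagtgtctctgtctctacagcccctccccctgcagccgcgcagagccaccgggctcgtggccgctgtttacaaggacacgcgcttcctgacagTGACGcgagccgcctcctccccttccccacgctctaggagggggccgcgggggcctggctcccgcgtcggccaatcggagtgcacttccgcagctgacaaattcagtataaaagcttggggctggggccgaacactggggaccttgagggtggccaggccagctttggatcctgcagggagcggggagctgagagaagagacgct
Egr4, chr4:119607768-119608067, minus strand.
Egr4: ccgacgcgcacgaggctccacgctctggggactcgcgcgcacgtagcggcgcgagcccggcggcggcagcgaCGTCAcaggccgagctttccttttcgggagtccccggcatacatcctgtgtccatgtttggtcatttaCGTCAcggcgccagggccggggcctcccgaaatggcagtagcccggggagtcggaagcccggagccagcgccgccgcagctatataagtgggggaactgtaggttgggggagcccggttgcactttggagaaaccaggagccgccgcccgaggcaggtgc
The window of Dusp1 held the full element TGACGTCA once, starting at -124 from the gene start, as did 1.83% of the 33469 windows in the table. TGACG occurred 3 times in Dusp1, 4 times in Nr4a1, once in Junb and 2 times in Egr4, and 21.2% of all windows held it at least once. The CArG box bound by serum response factor was in none of the 4 and in 1.64% of all windows. Matching letters describe the window and do not show binding.

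Dusp1 encodes a nuclear phosphatase that inactivates MAP kinases. Its level was 9.35, 8.79 and 9.47 in the 1 mg/kg animals, against 10.23, 10.58 and 10.50 in vehicle animals. The highest dosed animal lay below the lowest vehicle animal. The difference was -1.23 ± 0.24 (0.425-fold, adjusted p = 0.147 by limma), the smallest p of the comparison. A second probe set of Dusp1 gave -1.14.

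Arc encodes a cytoskeletal protein of dendrites that regulates AMPA receptor uptake. Arc measured 9.68, 8.75 and 9.46 in dosed animals, against 10.54, 11.30 and 10.47 in vehicle animals. The groups did not overlap, with dosed animal 2 the lowest and vehicle animal 3 the highest array. The difference was -1.47 ± 0.33 (0.36-fold, adjusted p = 0.323 by limma).

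Nr4a1, an orphan nuclear receptor induced by activity, measured 9.52, 8.55 and 9.599 in dosed animals, against 9.95, 10.77 and 10.57 in vehicle animals, a difference of -1.21 ± 0.32 (adjusted p = 0.892 by limma). Fos, a subunit of the AP-1 transcription factor, measured 7.61, 6.97 and 7.96 in dosed animals, against 8.18, 9.31 and 8.93 in vehicle animals, a difference of -1.29 ± 0.54. Junb, another AP-1 subunit, measured 8.90, 8.61 and 8.76 in dosed animals, against 9.02, 9.72 and 9.37 in vehicle animals, a difference of -0.61 ± 0.21. In all of these, vehicle animal 2 was the lowest vehicle array and dosed animal 2 the lowest dosed array. Egr4, a zinc finger factor of the Egr family, differed by -0.51 ± 0.22, or -0.27 without dosed animal 2. Its relative Egr1 differed by -0.41 ± 0.20 with groups that overlapped. Against the direction of most of the list, Ier3, Jun, Nr4a2 and Gadd45b had differences from 0.05 to 0.44.

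**Figure D1:**
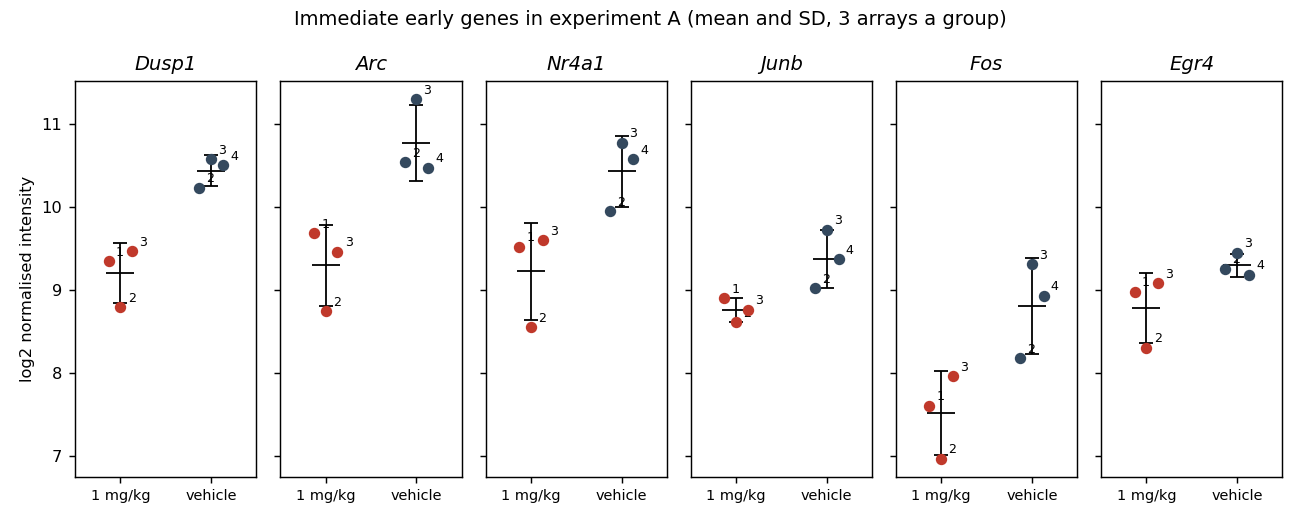
Log2 normalised intensity of 6 immediate early genes in each array of experiment A, 1 mg/kg at the left and vehicle at the right of each panel, with animal numbers, group means and SD (n = 3 each). In each panel the 3 dosed points lie below the 3 vehicle points, and Dusp1 has its dosed points between 8.79 and 9.47.

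The 12 lower genes named by smallest p include Dusp1, Arc and Nr4a1 and others outside the list. Mitf, a basic helix-loop-helix transcription factor, measured 5.29, 6.28 and 6.66 in dosed animals, against 7.33, 6.83 and 7.25 in vehicle animals. The difference was -1.06 ± 0.25 (adjusted p = 0.442 by limma), and the dosed values are dim. Without dosed animal 1, its lowest array, the Mitf difference was -0.67. Cdkal1, a methylthiotransferase that modifies transfer RNA, measured 7.59, 7.36 and 7.72 in dosed animals, against 8.45, 8.61 and 8.56 in vehicle animals, a difference of -0.99 ± 0.23 (adjusted p = 0.442 by limma). Its arrays lay close together within each group. Sncb, which encodes beta-synuclein of presynaptic terminals, differed by -0.35 ± 0.11, but its other probe set gave -0.01. Bcl2l11, the pro-apoptotic protein Bim, differed by -0.55 ± 0.19, or -0.34 without dosed animal 3, and its other probe set gave 0.05. The remaining lower genes were Kcnk15 (a potassium channel), Tmod1 (which caps actin filaments), Dennd1b (a Rab exchange factor), Trib1 (a pseudokinase) and Adss1 (of purine synthesis), with differences from -0.66 to -0.45. Tmod1 was at -0.30 without dosed animal 2 and Dennd1b at -0.37 without dosed animal 3.

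Among the 12 higher genes, Apoc1, an apolipoprotein, measured 8.64, 9.38 and 8.18 in dosed animals, against 7.999, 7.35 and 7.69 in vehicle animals. Its difference was 1.05 ± 0.27 (adjusted p = 0.892 by limma), with dosed animal 2 the highest. Nnat, which encodes the membrane proteolipid neuronatin, measured 12.35, 13.03 and 12.37 in dosed animals, against 11.54, 10.94 and 11.94 in vehicle animals, a difference of 1.11 ± 0.41. Dosed animal 2 was again the highest array. Mgst1, a membrane-bound glutathione transferase, differed by 0.77 ± 0.25 and Vat1, a vesicle amine transport protein homolog, by 0.76 ± 0.24. Cbarp, a regulator of voltage-gated calcium channels, measured 11.01, 11.23 and 10.97 in dosed animals, against 10.82, 10.36 and 10.81 in vehicle animals, a difference of 0.41 ± 0.11, or 0.26 without vehicle animal 3. The others were 6330403K07Rikl, Ptpre, Peds1, Pcgf6, Orc6, Tspyl2 and Cetn2, with differences from 0.36 to 1.05. A probe set with no gene symbol in the annotation had the smallest p among those higher at 1 mg/kg, with 7.52, 7.51 and 7.27 in dosed animals against 6.84, 6.24 and 6.69 in vehicle animals, a difference of 0.84 ± 0.18 (adjusted p = 0.242 by limma).

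**Figure D2:**
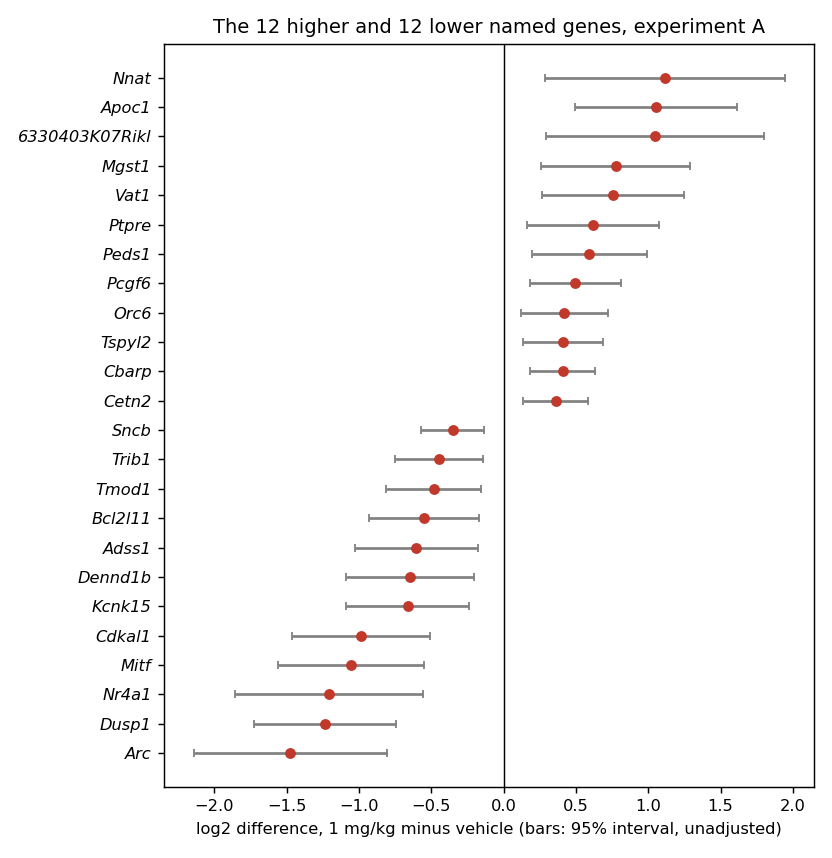
Log2 difference, 1 mg/kg minus vehicle, of the 12 higher and 12 lower genes chosen by rule, with unadjusted 95% intervals of the limma fit. Arc is the lowest at -1.47 and Nnat the highest at 1.11, and none passed the adjusted test.

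Genes of acetylcholine signalling, the transmitter that the target enzyme breaks down, showed no shared direction. Of 25 listed, 14 passed the filter, with 6 higher, 8 lower, none at an unadjusted p under 0.05 and a median of -0.00. Ache was not analysed here, and Chat, Slc18a3 and Chrnb2 were under the filter. Bche, the butyrylcholinesterase that organophosphates also bind, measured 7.18, 6.99 and 6.66 in dosed animals, against 7.18, 7.28 and 7.22 in vehicle animals, a difference of -0.28 ± 0.18. The muscarinic receptor Chrm1 differed by 0.18 ± 0.61 and the nicotinic subunit Chrna4 by -0.10 ± 0.15. Among the serine hydrolases 9 of 17 were lower, with a median of -0.02.

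Synaptic and channel genes leaned lower by small amounts. Of 30 measured genes of synaptic vesicles and release, 24 were lower (50.8% of all probe sets were), with a median of -0.12 and none at an unadjusted p under 0.05. That median was -0.08 without dosed animal 1, and -0.02 with 17 lower in a model with dose and experiment as additive terms. That model pools the 1 mg/kg arrays of experiments A and C, so it does not estimate the experiment A difference alone. Snap25, a SNARE protein of the terminal, measured 13.43, 13.34 and 13.24 in dosed animals, against 13.44, 13.47 and 13.47 in vehicle animals. Of 39 voltage-gated channel genes, 31 were lower with a median of -0.11, which was -0.17 without vehicle animal 2 or vehicle animal 4. Over the 16 alternative runs described at the end that median ran from -0.21 to -0.08. Kcnc1, a fast potassium channel, was the 1 channel gene with an unadjusted p under 0.05, against 3.22% of all probe sets. It differed by -0.55 ± 0.25, or -0.31 without dosed animal 3. Cytosolic ribosomal protein genes leaned higher in 29 of 34, by a median of 0.07, which was 0.01 without vehicle animal 3. Among glucocorticoid-responsive genes 13 of 21 were lower, 2 of them at an unadjusted p under 0.05, against 1.96% of all probe sets. These were Dusp1, which is also in the immediate early list, and Ddit4. Ddit4, a stress-induced inhibitor of mTOR, differed by -0.54 ± 0.25.

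Markers of brain regions differed between arrays within both groups. For 16 striatal markers, among them the dopamine receptor Drd1 and the adenosine receptor Adora2a, the median centred on the mean of 39 arrays was 0.65, -0.82 and 0.29 in dosed animals, against 0.69, -0.87 and -1.13 in vehicle animals. Their summed intensity was 26353, 9593 and 19320 in dosed animals, against 27564, 9460 and 9406 in vehicle animals. Both groups thus held high and low pieces, and 13 of the 16 had a difference above 0, with a median of 0.43. Leaving out 1 array gave medians from 0.10 (without vehicle animal 4) to 0.99 (without vehicle animal 2). The direction turned with the animal number as a replicate block (-0.16, 11 of 16 lower) and in the additive model (-0.13, 12 of 16 lower). The additive model also takes in the 1 mg/kg arrays of experiment C, where the striatal median was -0.90.

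Hypothalamic markers were high in 1 dosed animal. Oxt, the precursor of oxytocin, measured 7.23, 12.02 and 6.67 in dosed animals, against 8.69, 5.59 and 6.22 in vehicle animals. Avp, the precursor of vasopressin, measured 8.26, 11.38 and 7.45 in dosed animals, against 9.31, 7.08 and 6.62 in vehicle animals. Dosed animal 2 set the group mean of both: the Oxt difference was 1.80 ± 1.19 with it and 0.11 without it. Of 15 hypothalamic markers listed 4 passed the filter, all with a difference above 0, and their summed intensity was 1073, 7733 and 734 in dosed animals, against 1468, 688 and 705 in vehicle animals. Thalamic markers were also highest in dosed animal 2, with a centred median of 1.06 and a summed intensity of 4096, against 1632 to 2162 in the other dosed animals and 1603 to 2598 in vehicle animals.

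Cortical markers, which the frontal lobe label calls for, were present, with Slc17a7, the vesicular glutamate transporter of cortical neurons, at 12.22, 12.34 and 12.24 in dosed animals, against 12.47, 12.70 and 12.40 in vehicle animals. Of 13 measured, 9 were lower, with a median of -0.24. That median was -0.10 without vehicle animal 3, -0.11 without dosed animal 2 and -0.16 without vehicle animal 4. In the additive model, which pools experiments A and C, it was 0.01, with 6 lower. Their summed intensity was 30683, 30088 and 34879 in dosed animals, against 33493, 40233 and 32876 in vehicle animals. The array with the highest cortical sum, vehicle animal 3, was also the one with the highest immediate early genes. The array with the highest hypothalamic sum, dosed animal 2, was the one with the lowest. The part of tissue composition in the lower immediate early genes was not tested. Dosed animal 1 and vehicle animal 2 had similar striatal sums and correlated at 0.982 over the normalised values. Their choroid plexus sums were 4634 against 3436 and their meningeal sums 24239 against 18795. Dusp1 was 9.35 in that dosed animal, against 10.23 in that vehicle animal, while Junb was 8.90 against 9.02. The groups do not overlap for either gene, so any such pair has the dosed animal lower. This pair is therefore no test of composition.

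**Figure D3:**
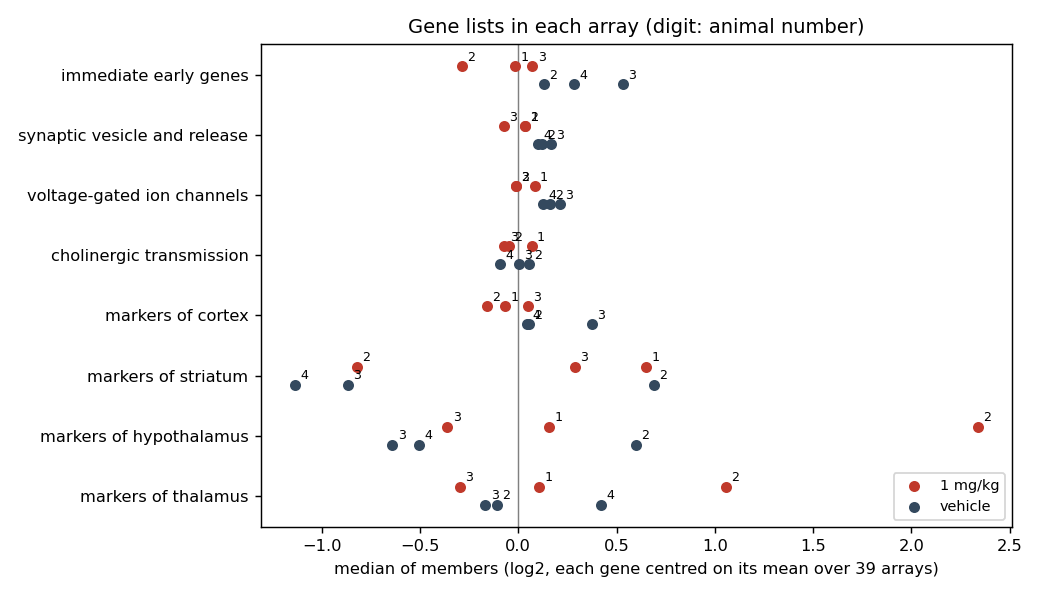
Median of 8 gene lists in each array of experiment A, each gene centred on its mean over 39 arrays, with 1 mg/kg above vehicle in each row and animal numbers beside the points. The immediate early medians of dosed animals lie at -0.29 to 0.07 and those of vehicle animals at 0.13 to 0.53, while striatal and hypothalamic medians spread widely within both groups.

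Of 20 fast skeletal muscle genes on the array, 12 were under the filter, and 6 of the 8 measured members were lower. Tnnc2, the fast troponin C, measured 8.46, 6.88 and 8.12 in dosed animals, against 8.82, 8.80 and 8.49 in vehicle animals, a difference of -0.88 ± 0.35, or -0.41 without dosed animal 2. Astrocyte markers were higher in 15 of 18 by a median of 0.07, with summed intensities of 78279 to 86436 in dosed animals, against 75728 to 80031 in vehicle animals. Choroid plexus markers were lower in 7 of 8, with sums of 2808 to 4634 in dosed animals, against 3436 to 4352 in vehicle animals, and their transthyretin gene Ttr measured 9.90, 8.19 and 8.16 in dosed animals, against 8.35, 10.13 and 8.14 in vehicle animals. That gene was high in 1 animal of each group.

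Higher doses of experiment A share the 3 vehicle arrays, so their differences from vehicle are given side by side. Dusp1 differed from vehicle by -1.23 at 1 mg/kg, -0.11 at 10 mg/kg and -1.24 at 50 mg/kg. Arc differed by -1.47, -0.26 and -1.24 at those doses and Nr4a1 by -1.21, -0.27 and -1.11. The median of the immediate early list was -0.34 at 1 mg/kg, -0.13 at 10 mg/kg and -0.47 at 50 mg/kg. The 10 mg/kg group thus lay closest to vehicle in all of these. Medians of region markers also differed between these doses. For hypothalamic markers they were 1.00 at 1 mg/kg, -0.26 at 10 mg/kg and 3.04 at 50 mg/kg. Striatal medians were 0.43, 0.11 and 0.79 at those doses, and cortical medians -0.24, -0.14 and -0.58. Thalamic medians were 0.26, 0.26 and 0.37, and olfactory bulb medians -0.01, -0.08 and 0.35. The part of tissue composition in the dose pattern was not tested. Dusp1 passed the adjusted test at 50 mg/kg (adjusted p = 0.0336 by limma) and did not at 1 or 10 mg/kg.

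The direct comparison of 1 with 10 mg/kg, which leaves out the vehicle arrays, also called no probe set (limma, lowest adjusted p 0.113), and 953 (8.58%) had an unadjusted p under 0.05, 3.64% higher and 4.94% lower. Dusp1 lay between 8.79 and 9.47 at 1 mg/kg, against 10.21 to 10.48 in the 5 arrays at 10 mg/kg, a difference of -1.12 ± 0.21 (adjusted p = 0.113 by limma). Of the other genes with the smallest p, Mitf differed by -1.005 ± 0.22, Acss2 (acetyl-CoA synthesis) by -0.48, Ermp1 (an endoplasmic reticulum peptidase) by -0.38 and Mrfap1 by 0.41. In the immediate early list 19 of 23 were lower at 1 than at 10 mg/kg, 5 of them at an unadjusted p under 0.05, with a median of -0.19. The median over all probe sets was -0.01, and the share of them below 0 was not counted for this comparison. Some other lists leaned the same way. Glucocorticoid-responsive genes, Dusp1 among them, had 17 of 21 lower, 5 at that p, with a median of -0.23. Respiratory chain genes had 37 of 48 lower, 5 at that p, with a median of -0.05. Myelin markers had 15 of 16 lower, 0 at that p, with a median of -0.21. Against that direction, striatal markers had 3 of 16 lower (median 0.46), microglial markers 2 of 17 (0.23) and hypothalamic markers 0 of 4 (1.26). The part of tissue composition in these counts was not tested.

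Experiment C held the same dose in 4 dosed and 3 vehicle animals, with the array of vehicle animal 1 titled a 1st repeat. It shared no array with experiment A. Its dosed animal 1 stood apart in RNA quality, with a 3' to 5' ratio of 4.72 for actin and 2.42 for GAPDH, against 1.24 to 1.44 and 1.14 to 1.26 in the other 6 arrays. Values without that array, a choice made after seeing the data, stand beside those with it. The difference between the 1 mg/kg effects of the 2 experiments called no probe set (limma, lowest adjusted p 0.387), and 815 (7.34%) had an unadjusted p under 0.05, 2.84% higher and 4.5% lower. Dusp1 differed from vehicle by -1.23 ± 0.24 in experiment A, against -0.13 ± 0.22 in experiment C, or -0.33 ± 0.22 without that array. Arc differed by -1.47 ± 0.33 in experiment A, against -0.48 ± 0.31 in experiment C (-0.46 without it). Fos differed by -1.29 ± 0.54 in experiment A, against -1.13 ± 0.51 in experiment C (-1.43 without it), and Junb by -0.61 ± 0.21 against -0.56 ± 0.20 (-0.49 without it). The immediate early list had a median of -0.34 in experiment A, against -0.03 in experiment C, or -0.13 without that array. Vehicle levels of Dusp1 were 10.23 to 10.58 in experiment A, against 9.37 to 9.88 in experiment C, a range that holds 1 of the 3 dosed arrays of experiment A.

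**Figure D4:**
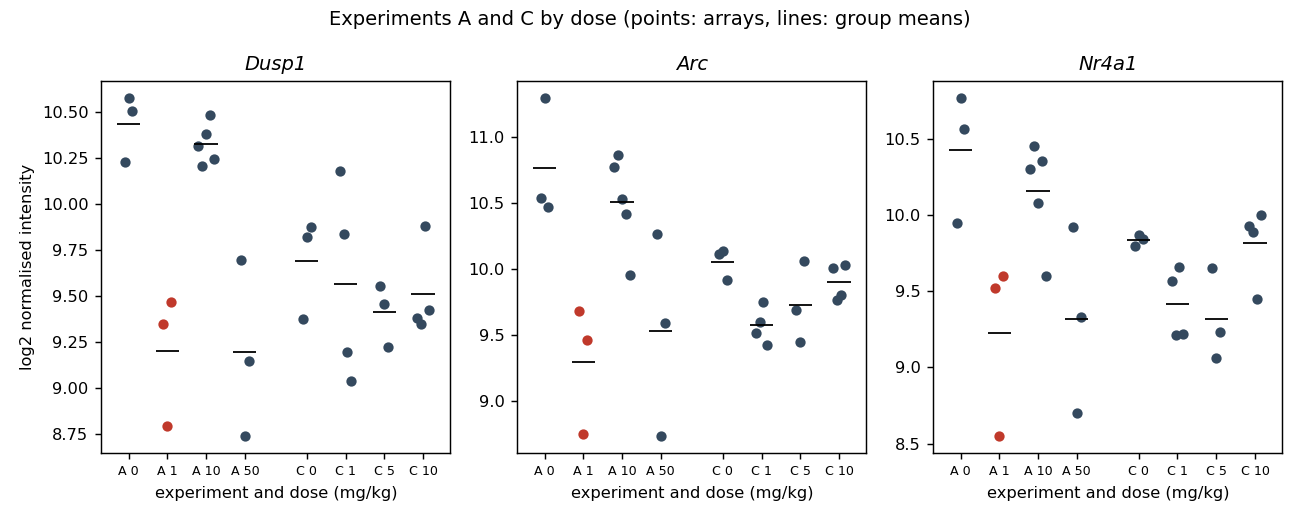
Log2 normalised intensity of Dusp1, Arc and Nr4a1 in each array of experiments A and C, ordered by dose in mg/kg, with 1 mg/kg of experiment A in red and lines at group means. Dusp1 means are 9.20 at 1 mg/kg and 10.44 in vehicle animals of experiment A.

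The genes with the smallest p for the difference between experiments were Zc3h11a (an RNA export factor), Ewsr1 (an RNA-binding protein), Sncb, Cdkal1 and Clec2l, each at an adjusted p of 0.387 by limma, or 0.502 without dosed animal 1 of experiment C. Cdkal1 differed from vehicle by -0.99 in experiment A, against 0.34 in experiment C (0.25 without that array), and Sncb by -0.35 against 0.27 (0.24 without it). Zc3h11a differed by 0.25 in experiment A, against -0.48 in experiment C (-0.53 without it). Striatal markers had a median of 0.43 in experiment A, against -0.90 in experiment C, or -0.63 without that array. Over 11106 probe sets the effects of the 2 experiments correlated at Pearson's r = -0.217 and Spearman's rho = -0.208 (-0.173 and -0.179 without that array), a description across probe sets that share arrays and are not independent.

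**Figure D5:**
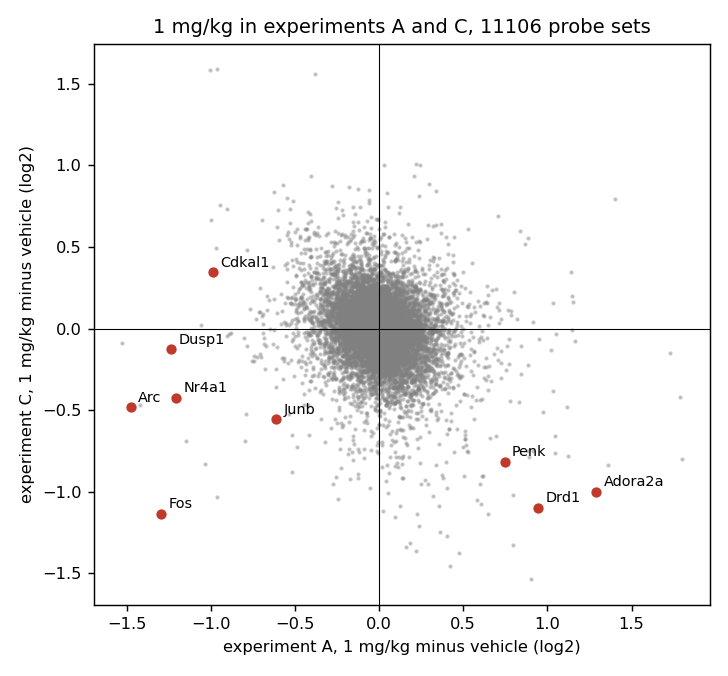
Log2 difference, 1 mg/kg minus vehicle, of 11106 probe sets in experiment A (horizontal) and experiment C (vertical), with named genes in red. Arc, Fos and Junb are below 0 in both, while the striatal genes Penk, Drd1 and Adora2a are above 0 in experiment A and below 0 in experiment C.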

How the data were processed

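The series measured frontal lobe RNA on Affymetrix rat arrays. The authors deposited 1 linear intensity for each probe set and array, and per the labels' protocols biotin-labelled cRNA was made from 15 ug of total RNA; how probe sets were summarized is not stated in those protocols. Of 46 arrays, 39 share a row order and were used (pairwise r of log2 intensity 0.935 to 0.979), and 7 were left out. Medians were made equal, values under the 5th percentile (an intensity of 10.7) were raised to it, and log2 values were quantile normalised. Control probe sets (57) and those with a mean under the 30th percentile were dropped. Symbols came from the platform annotation (12783 probe sets with 1 symbol, 312 with several, 2771 with none), updated through RefSeq identifiers for 12748.

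The model, run with limma 3.58.1 under R 4.3.3, had 1 mean per experiment and dose over the 39 arrays, trend=TRUE, and two-sided tests adjusted by Benjamini-Hochberg over 11106 probe sets at 0.05. Lists took 1 probe set a gene, the one with the highest mean. Named genes were 12 higher and 12 lower, by size among called probe sets and otherwise by smallest p among those whose groups do not overlap, up to 4 members per list, a fixed set, and the 5 smallest p in each other contrast. The members and the 37 lists were chosen with earlier results of these data known. The test was tested on simulated data. Alternatives changed normalisation, floor, filter, prior, weights, samples and model. Figures used python and matplotlib (3.11.15 and 3.10.9).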

Additional observations from a re-analysis of the deposited data

How the results depend on the processing

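The count of probe sets called in 1 mg/kg minus vehicle was 0 in every alternative run except array weights, where it was 3: Dusp1 (adjusted p = 0.0110, difference -1.25), Cdkal1 (adjusted p = 0.0404, difference -0.997) and the probe set without a symbol. Over the 16 alternatives the adjusted p of Dusp1 by limma ran from 0.0110 to 0.9996 and its difference from -1.37 to -0.56. The last was in the additive model with experiment, which pools the 1 mg/kg arrays of experiments A and C. Array weights called 52 probe sets in 1 minus 10 mg/kg, among them Dusp1 (-1.19), Mrfap1 (0.38), Mitf (-1.05), Acss2 (-0.47) and Ermp1 (-0.38), and the arrays of experiment A alone called 2. The difference between experiments A and C called 0 in each alternative run, and could not be fitted on experiment A alone. Leaving out each array in turn gave 0 to 0 calls in all 3 comparisons, with 210 to 481 probe sets at an unadjusted p under 0.05 in 1 mg/kg minus vehicle, 596 to 1040 between experiments and 565 to 1059 in 1 minus 10 mg/kg. With the animal number as a replicate block 0 were called (lowest adjusted p 0.884). Deviations of same-numbered animals correlated at -0.106 for number 2 and 0.101 for number 3. These values stand without differently numbered pairs beside them, so they cannot show whether the numbers mark a block. Of 986 alternatives of named genes 967 kept their direction and side of the threshold, 7 passed it (all with array weights) and 12 turned their sign. No named gene had passed in the fit above, so the same side means not called. The 12 higher and 12 lower genes were chosen with groups that do not overlap. Leaving out 1 array could not turn their sign, so much of this agreement was fixed in advance. The additive model turned Gstm1 (-0.036), Hlf (0.0098), Cdk4 (-0.0141), Chrm1 (-0.0359) and Ttr (0.1911), and the replicate block turned Chrm1 (-0.01). Leaving out arrays gave -0.7038 to 0.5015 for Ttr and -0.0888 to 0.0479 for Mbp. Ttr turned without vehicle animal 3 (0.5015), dosed animal 2 (0.1535) or dosed animal 3 (0.1697), and Mbp without vehicle animal 2 (0.0361), vehicle animal 3 (0.024) or dosed animal 2 (0.0479). Of 592 alternatives of list medians 559 moved by less than the spread between arrays. The immediate early median stayed below 0 in 16 of 16, from -0.41 to -0.12. The striatal median ran from -0.16 to 0.99. The cause of these changes was not tested. Precision is limited by 3 arrays a group, and the deposited values hold no detection calls.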
